A study of Mus musculus with 6 samples.

Results

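The genes described here encode the contractile machinery of skeletal muscle: 37 genes of the thick filament, the thin filament, the Z-disc and the M-band, among them the isoforms that mark fast fibres, slow fibres and developing muscle. They were chosen by symbol, from what their products are known to do. All 37 were measured, by 70 of the 45101 probe sets on the array, and they are 37 of the 18193 genes that had a probe set naming only that gene. The study compared RNA of the endosteal region with RNA of the central bone marrow in the femur shaft of male C57BL/6 mice, 8 weeks old and injected intraperitoneally with saline. Per the labels' protocols, muscle and periosteum were scraped and rubbed off each femur and the metaphyses were cut away before the shaft was flushed. The endosteal RNA is what Trizol, an RNA extraction reagent, lysed when it was passed through the flushed shaft, and the central RNA came from the flushed cells after they had been pelleted. Each region has 3 arrays, lettered A, B and C, from the same 3 mice, and the labels do not say that a letter marks 1 mouse.

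A sarcomere holds myosin thick filaments that slide along actin thin filaments anchored in the Z-disc. Calcium starts contraction by binding troponin C, which moves tropomyosin off the myosin sites of actin. Fast-twitch and slow-twitch fibres use different genes for most of these parts, so that the myosin heavy chains, light chains and troponins read out fibre type, whereas the skeletal actin, nebulin and titin genes serve both kinds of fibre. Several of the slow genes are also the genes of the heart ventricle. Sarcomeres are structures of skeletal muscle and heart, and the cells of marrow and bone do not build them.

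Each value is a probe set's signal as deposited, in linear intensity units. All 6 arrays had the same trimmed mean signal of 500, with medians between 120 and 131 on the endosteal arrays and between 97.2 and 106 on the central ones. Between 15.9% and 20.1% of probe sets had a signal below 16. Pearson's r between arrays, across genes on the log2 scale, was 0.944 to 0.946 within endosteal, 0.971 to 0.973 within central and 0.921 to 0.937 between regions. Changes are given as log2 of the signal plus 16, endosteal over central, with the standard error (SE) and the Benjamini-Hochberg adjusted p of a limma fit over all 18193 genes. A gene is called where that p is under 0.05. Adding 16 makes the change of a weakly detected gene come out smaller, and central signals near background cannot be ranked.

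Of the 37 sarcomere genes, 28 were called higher in endosteal RNA and 0 lower, where 7.92% of all genes were called higher and 4.02% lower. At an unadjusted p under 0.05 limma found 35 higher and 0 lower, where 3253 of all 18193 genes were higher and 2061 lower. Leaving out each array in turn kept 18 of the 28 calls, and the arrays whose omission ended one of the other 10 are named beside the gene. Both regions came from the same mice, and with the letter as a replicate block limma called 15 of the 37 higher, where 0.786% of all genes were called higher in that fit. The 13 calls that ended with the block were those of Myh1, Mybpc2, Tpm1 and Ttn (adjusted p = 0.0502 to 0.0513), of Myl3, Myoz2, Myom2 and Actc1 (0.0566 to 0.0712), and of Tnni1, Klhl41, Actn2, Des and Myom1 (0.0802 to 0.101). The median change of the 37 was 3.70, against 0.10 for all genes. The 3 endosteal signals all lay above the 3 central signals for 35 of the 37, where 22.3% of all genes had this order. The summed signal of the 37 was 201216, 124170 and 102259 on endosteal A, B and C, against 20650, 19344 and 20581 on central A, B and C. Most of the central sum came from a single gene, Tpm3, whose product is also a tropomyosin of non-muscle cells. The central mean signal was below 100 for 24 of the 37 genes and below the median gene's signal of 226 for 31. In RNA of mixed cells, fewer cells of a type and less RNA per cell cannot be told apart, so these are differences in the share of the RNA.

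**Figure D1:**
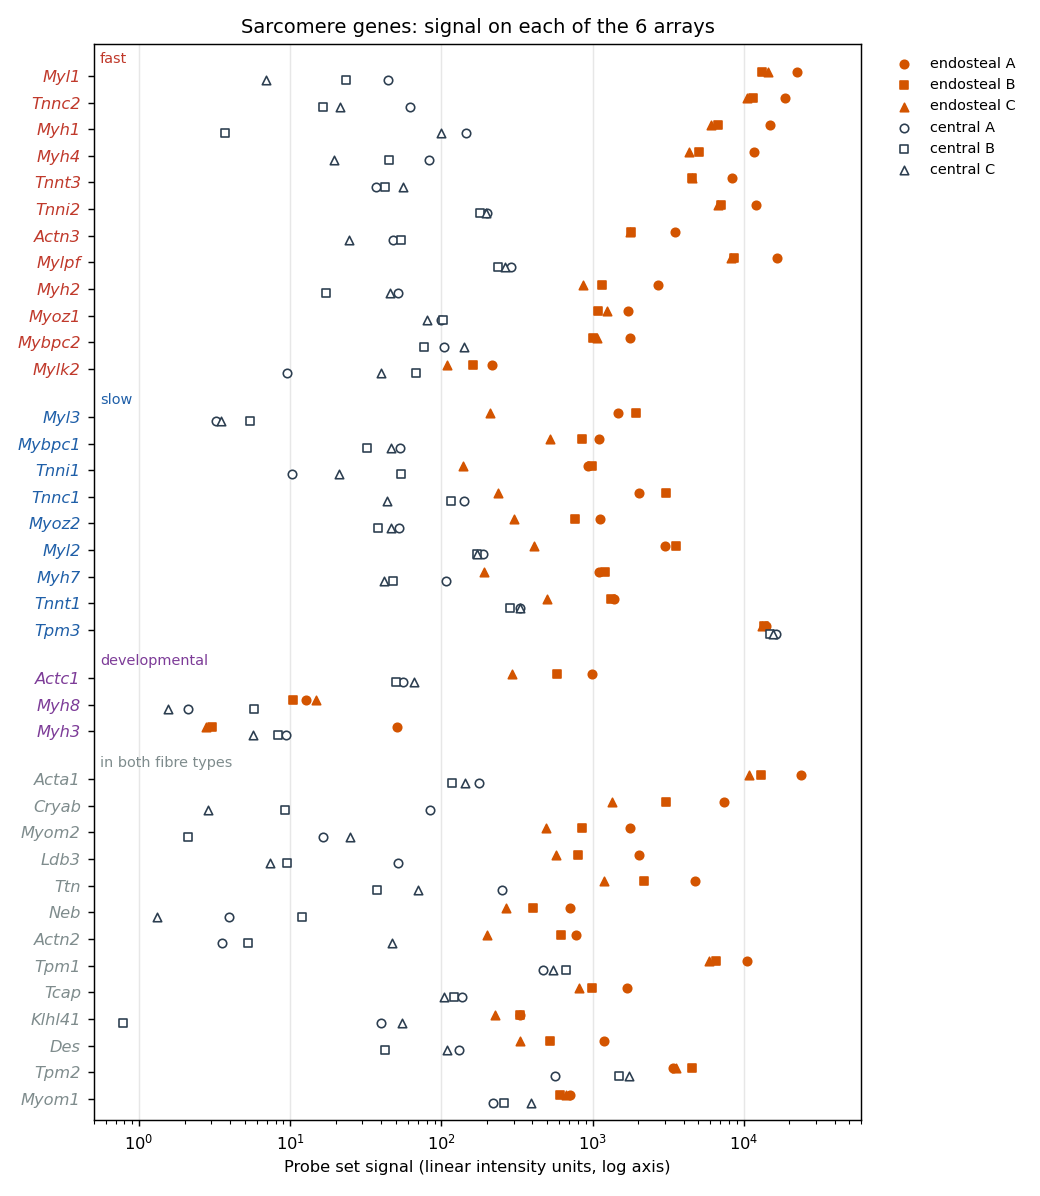
Signal of each sarcomere gene on the 6 arrays, in linear intensity units on a log axis, with endosteal arrays filled and central arrays open. The fast genes sit between 868 and 22470 on every endosteal array apart from Mylk2, and the triangle of endosteal C lies far to the left of endosteal A and B for most slow genes.

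Divided by fibre type, 11 of 12 fast genes, 4 of 9 slow genes, 1 of 3 developmental genes and 12 of 13 genes of both fibre types were called higher. The number of slow genes called depended on the fit, with 8 called with an intensity trend, among genes above the median signal or without endosteal C, 7 with pseudocount 64, and 1 with the letter as a block or without central A or B. Of all genes tested, 12.2%, 18.4% and 5.10% were called higher in the fits with 8 slow genes. The share was 10.2% with pseudocount 64, 0.786% with the block, and 3.47% and 3.02% without central A or B. The number of fast genes called ran from 9 to 12 over the same alternatives. The median changes were 5.32, 3.42, 0.58 and 4.01 in the same order. By place in the sarcomere, 8 of 13 thick filament genes, 9 of 13 thin filament genes, 8 of 8 Z-disc genes and 3 of 3 genes of the M-band and titin were called. The 9 genes not called were Myh3, Myh8, Myh7, Mylk2, Myl2, Tnnt1, Tnnc1, Tpm2 and Tpm3, of which 5 are slow genes.

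**Figure D2:**
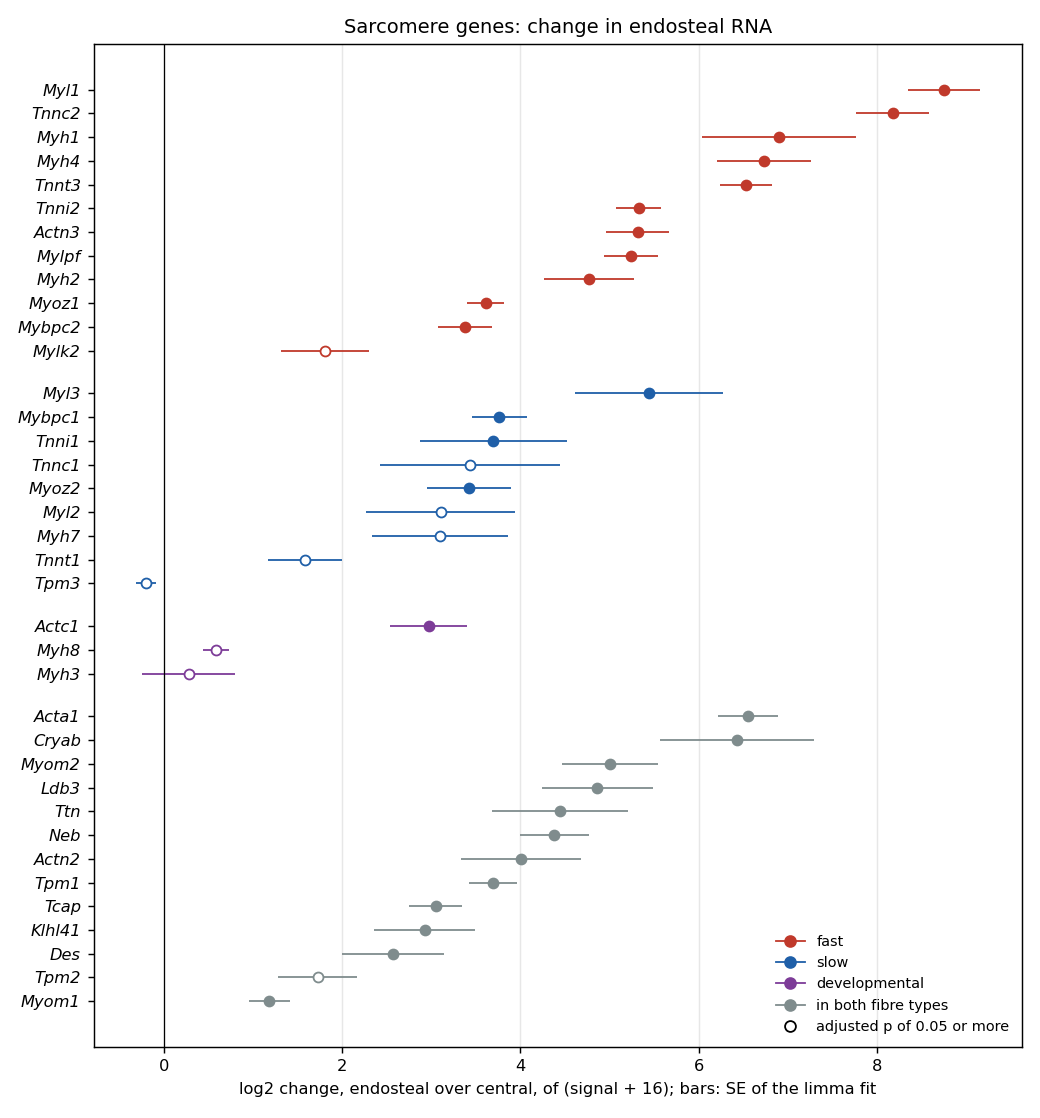
Change of each sarcomere gene, endosteal over central, on the log2(signal + 16) scale, with the SE of the limma fit as bars and open circles for genes with an adjusted p of 0.05 or more. The fast genes reach 8.75, and 5 of the 9 slow genes are open.

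Promoters are printed for genes whose signals moved together between the regions and for fast and slow partners that differed among the endosteal arrays. They run from 250 bases before to 50 bases after the transcription start, in RefSeq's GRCm38.p6 table, and are written 5′ to 3′ on the gene's strand. Acta1, the skeletal actin, stands for the genes of both fibre types. The partners are the essential light chains Myl1 (fast) and Myl3 (slow) and the troponin C genes Tnnc2 (fast) and Tnnc1 (slow). Capitals mark matches, on either strand, to the E-box CANNTG (bound by the MyoD family), the TATA box TATAAA, the MEF2 site or the CArG box (bound by serum response factor).
Acta1 promoter, chr8:123894726-123895025, minus strand: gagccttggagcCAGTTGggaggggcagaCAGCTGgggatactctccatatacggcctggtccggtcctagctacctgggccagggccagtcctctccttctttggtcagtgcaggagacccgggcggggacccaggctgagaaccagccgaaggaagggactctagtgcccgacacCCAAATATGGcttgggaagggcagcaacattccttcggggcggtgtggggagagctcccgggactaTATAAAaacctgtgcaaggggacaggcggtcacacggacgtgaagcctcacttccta
Myl1 promoter, chr1:66945007-66945306, minus strand: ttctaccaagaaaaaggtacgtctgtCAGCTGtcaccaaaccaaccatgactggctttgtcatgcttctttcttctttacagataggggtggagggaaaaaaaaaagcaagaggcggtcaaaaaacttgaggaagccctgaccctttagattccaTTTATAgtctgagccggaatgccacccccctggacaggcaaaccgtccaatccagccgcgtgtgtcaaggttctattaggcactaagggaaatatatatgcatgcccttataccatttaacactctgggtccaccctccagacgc
Myl3 promoter, chr9:110763428-110763727, plus strand: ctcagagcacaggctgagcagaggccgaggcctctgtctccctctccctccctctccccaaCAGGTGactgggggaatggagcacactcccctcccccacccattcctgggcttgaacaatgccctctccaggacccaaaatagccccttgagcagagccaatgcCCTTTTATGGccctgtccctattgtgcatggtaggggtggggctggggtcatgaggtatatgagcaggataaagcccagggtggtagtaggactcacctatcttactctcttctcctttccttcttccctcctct
Tnnc2 promoter, chr2:164779685-164779984, minus strand: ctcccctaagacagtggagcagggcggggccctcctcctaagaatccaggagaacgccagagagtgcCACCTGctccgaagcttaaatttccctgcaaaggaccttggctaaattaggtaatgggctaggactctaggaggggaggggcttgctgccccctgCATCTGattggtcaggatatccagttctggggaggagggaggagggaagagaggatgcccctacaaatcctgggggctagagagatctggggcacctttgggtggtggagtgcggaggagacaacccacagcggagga
Tnnc1 promoter, chr14:31208062-31208361, plus strand: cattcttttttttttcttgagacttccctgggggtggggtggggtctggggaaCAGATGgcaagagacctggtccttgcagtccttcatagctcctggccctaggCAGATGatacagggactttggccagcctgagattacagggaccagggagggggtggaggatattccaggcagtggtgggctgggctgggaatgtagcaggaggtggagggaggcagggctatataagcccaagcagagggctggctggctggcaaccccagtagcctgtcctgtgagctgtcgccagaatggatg

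The Acta1 window held 2 E-boxes, 1 CArG box and 1 TATA box, the Myl1 window 1 E-box and 1 TATA box, and the Myl3 window 1 E-box and 1 CArG box. The Tnnc2 and Tnnc1 windows held 2 E-boxes each and none of the other 3 motifs. The table held 33 promoters of 28 of the 37 genes. A CArG box was present in 21.2% of the 33 and in 1.63% of the 32851 promoters of the table, and a MEF2 site in 9.09% and 0.557%. An E-box, which many promoters hold by its short length, was present in 87.9% and 72.3%, and a TATA box in 30.3% and 13.6%. All 13 slow promoters and 5 of 7 fast promoters held an E-box, and 2 of 13 slow and 4 of 7 fast promoters held a TATA box. A gene with more than 1 start counts with each window, and those of Myh7, of Tnni1 and of Ldb3 overlap. Both Ldb3 windows hold the same CArG box, which is counted with each. The TATA box matches of Myl1, Myl2 and Myh8 are TTTATA, on the opposite strand, as is 1 match each of Myh1 and Myh4. These are matches of letters in a fixed window and show no binding.

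The fast myosin heavy chains, the motor proteins of fast fibres, were among the largest increases. Myh4, the heavy chain of the fastest (IIb) fibres, had signals of 11620, 5044 and 4342 on endosteal A, B and C, against 82.7, 45.2 and 19.5 on central A, B and C, a change of 6.73 (SE 0.52, adjusted p = 0.00390). Myh1, the IIx heavy chain, had 15010, 6791 and 6067 on the endosteal arrays, against 146, 3.68 and 98.7 on the central arrays, a change of 6.90 (SE 0.86, adjusted p = 0.0111). Myh2, the IIa heavy chain of fast oxidative fibres, had 2707, 1154 and 868 in endosteal RNA, against 51.4, 17.3 and 46.0 in central RNA, a change of 4.77 (SE 0.50, adjusted p = 0.00730). For each of these 3 genes, the lowest endosteal signal was far above the highest central one, and endosteal A was 2.21 to 2.34 times endosteal B. Myh3, Myh2, Myh1, Myh4, Myh8 and Myh13 follow one another as protein-coding genes in the RefSeq table, and their transcripts are alike in sequence. The probe set used for Myh1 has the suffix of sets whose probes may also match other transcripts. The second Myh4 probe set had 247, 128 and 175 in endosteal RNA, against 57.2, 37.3 and 71.8 in central RNA, changed by 1.47 and was not called (adjusted p = 0.0569 over all probe sets), and the mean of both gave 4.10. A further Myh1 probe set without the suffix gave 5.98 (adjusted p = 0.0109 over all probe sets), and the third had signals between 2.83 and 12.6 on all arrays.

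The developmental heavy chains of the same cluster had signals near background and were not called. Myh3, the embryonic heavy chain, had 50.9, 3.02 and 2.76 on endosteal A, B and C, against 9.40, 8.31 and 5.67 on the central arrays, and the groups overlapped (change 0.28, SE 0.52, adjusted p = 0.767). Without endosteal A, the one array with a signal above 10, its change was -0.33 (adjusted p = 0.222). Myh8, the perinatal heavy chain, had 12.7, 10.4 and 14.7 in endosteal RNA, against 2.12, 5.74 and 1.56 in central RNA, a change of 0.58 that missed the threshold (SE 0.14, adjusted p = 0.0570). Signals this low say little about level. The third developmental gene, Actc1, encodes the cardiac actin that developing skeletal muscle also uses. Its signals were 994, 581 and 295 on the endosteal arrays, against 55.9, 50.3 and 65.7 on the central ones, a change of 2.97 (SE 0.43, adjusted p = 0.0157). It did not pass without endosteal B or without any 1 of the central arrays (adjusted p = 0.0516 to 0.0631).

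Myh7, the slow (type I) heavy chain and that of the adult heart in larger mammals, had 1099 and 1207 on endosteal A and B and 192 on endosteal C, against 107, 47.8 and 41.7 on the central arrays. All 3 endosteal signals were above all central ones, but the spread between endosteal arrays was wide, and the change of 3.10 was not called (SE 0.76, adjusted p = 0.0554). Without endosteal C, the change was 3.93 and was called (adjusted p = 0.0160). A further 2 probe sets name both Myh7 and its neighbour Myh6 and were left out.

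Myosin light chains wrap the lever arm of the heavy chain, and each fibre type has its own. Myl1, the fast essential light chain, had 22470, 13210 and 14470 on the endosteal arrays, against 44.0, 23.5 and 6.89 on the central arrays, a change of 8.75 (SE 0.40, adjusted p = 0.00173) whose size depends on the weak central signals. Mylpf, the fast regulatory light chain, had 16520, 8548 and 8169, against 288, 238 and 264 in central RNA, a change of 5.24 (SE 0.30, adjusted p = 0.00209). The lowest of its endosteal signals was many times the highest central one. The slow light chains were lower on endosteal C than on the other endosteal arrays. Myl2, the slow and ventricular regulatory chain, had 3024, 3569 and 407 on endosteal A, B and C, against 190, 173 and 171 on the central arrays (change 3.10, SE 0.84, adjusted p = 0.0697). It was called without endosteal C (4.09, adjusted p = 0.00828). Myl3, the slow and ventricular essential chain, had 1474, 1940 and 210 in endosteal RNA, against 3.23, 5.45 and 3.47 in central RNA, a change of 5.44 (SE 0.83, adjusted p = 0.0179). It did not pass without endosteal A or without any 1 of the central arrays (adjusted p = 0.0547 to 0.0673). Its 3 probe sets differed in size, with changes of 5.44, 4.54 and 2.04, and the last, the only one whose suffix marks no shared probes, was not called (adjusted p = 0.0843 over all probe sets).

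The remaining thick filament genes regulate or brace myosin. Mybpc2, the fast myosin-binding protein C, had 1776, 1001 and 1066 on the endosteal arrays, against 104, 77.1 and 140 on the central ones, a change of 3.38 (SE 0.30, adjusted p = 0.00499). Mybpc1, the slow form, had 1102, 851 and 520, against 53.2, 32.2 and 46.3 in central RNA, a change of 3.76 (SE 0.31, adjusted p = 0.00415). Its other 2 probe sets changed by 0.72 and 0.67, with overlapping groups, and were not called (adjusted p = 0.532 and 0.226 over all probe sets), and the mean of all 3 gave 1.72 (adjusted p = 0.0208 over genes). Its endosteal C signal was the lowest of the 3. Mylk2, the kinase that phosphorylates the regulatory light chain of skeletal muscle, had 218, 162 and 108 in endosteal RNA, against 9.58, 68.4 and 39.8 in central RNA, and was the one fast gene not called (change 1.81, SE 0.49, adjusted p = 0.0699).

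In the thin filament, Acta1, the skeletal actin whose promoter is printed above, had 23990, 13030 and 10890 on the endosteal arrays, against 178, 118 and 143 on the central arrays. Its change of 6.55 (SE 0.33, adjusted p = 0.00185) kept its call under all 16 other settings tried, with values from 6.18 to 6.79. Neb, the giant ruler protein nebulin, had 710, 405 and 269 in endosteal RNA, against 3.94, 12.0 and 1.31 in central RNA, a change of 4.38 (SE 0.39, adjusted p = 0.00494). Klhl41, a kelch-family protein that binds nebulin, had 331, 330 and 227, against 39.8, 0.788 and 54.9 in central RNA, a change of 2.93 (SE 0.57, adjusted p = 0.0317), which did not pass without central A or without any 1 of the endosteal arrays (adjusted p = 0.0676 to 0.0892).

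The 3 troponin subunits give fast and slow partners of the same function, and the partners differed on endosteal C. Tnnc2, the fast calcium-binding subunit, had 18800, 11420 and 10470 on endosteal A, B and C, against 62.0, 16.4 and 21.2 on the central arrays, a change of 8.17 (SE 0.41, adjusted p = 0.00185). Tnnc1, the slow and cardiac subunit, had 2025, 3048 and 236, against 141, 116 and 44.0 in central RNA, and its change of 3.44 was not called (SE 1.01, adjusted p = 0.0842). The Tnnc1 signal on endosteal B was 12.9 times that on endosteal C, the widest such ratio among the 37 genes, while for Tnnc2 it was 1.09 times.

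Tnni2, the fast inhibitory subunit, had 12070, 7024 and 6797 on the endosteal arrays, against 200, 180 and 196 on the central ones, a change of 5.33 (SE 0.25, adjusted p = 0.00173). Tnni1, its slow partner, had 934, 991 and 139 in endosteal RNA, against 10.2, 54.0 and 21.0 in central RNA, a change of 3.70 that passed narrowly (SE 0.83, adjusted p = 0.0437). Tnni1 stayed called without endosteal C (adjusted p = 0.0162) but not without any other 1 array (adjusted p = 0.0916 to 0.134), nor with pseudocount 1 (adjusted p = 0.0579) or quantile normalisation (adjusted p = 0.0564). Tnnt3, the fast tropomyosin-binding subunit, had 8370, 4570 and 4530, against 37.02, 42.2 and 56.0 in central RNA, a change of 6.53 (SE 0.29, adjusted p = 0.00172). Its endosteal B signal was 1.01 times that of endosteal C. Tnnt1, the slow partner, had 1378, 1324 and 499 in endosteal RNA, against 330, 282 and 330 in central RNA, and its change of 1.58 was not called (SE 0.41, adjusted p = 0.0641). Both Tnnc1 and Tnnt1 were called without endosteal C, at 4.54 (adjusted p = 0.0189) and 2.05 (adjusted p = 0.0104).

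The tropomyosins, which lie along actin, are shared with other cells through alternative first exons and splicing, and their probe sets disagreed. Tpm1, the main striated muscle form, had 10420, 6524 and 5856 on the endosteal arrays, against 469, 671 and 544 on the central arrays, a change of 3.69 (SE 0.27, adjusted p = 0.00333). Its other 3 probe sets gave 2.30, 1.13 and 0.42, and the first 2 of these were called. Tpm2, which slow fibres and smooth muscle also use, had 3408, 4517 and 3548, against 565, 1487 and 1727 in central RNA, and its change of 1.73 was not called (SE 0.44, adjusted p = 0.0611). Another Tpm2 probe set, with 2533, 1622 and 1353 in endosteal RNA against 68.0, 55.7 and 74.1 in central RNA, changed by 4.45 (adjusted p = 0.00402 over all probe sets). Its remaining sets gave 2.41, which was called, and 2.21, which was not (adjusted p = 0.0133 and 0.0515 over all probe sets). The mean of all Tpm2 sets gave 2.70 and was called (adjusted p = 0.00642 over genes).

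Tpm3, the slow-fibre tropomyosin that non-muscle cells also make, was the one sarcomere gene with all endosteal signals below all central ones, at 14100, 13640 and 13140 against 16370, 14890 and 15580 (change -0.20, SE 0.12, adjusted p = 0.327). A further 2 Tpm3 probe sets changed by -0.01 and -0.07. The remaining 2 had higher endosteal A and B signals and a lower endosteal C signal, as the other slow genes did. One had 1256, 1364 and 523 in endosteal RNA, against 492, 438 and 351 in central RNA (change 1.16, adjusted p = 0.162 over all probe sets), and the other 700, 990 and 152, against 151, 159 and 95.2 (change 1.74, adjusted p = 0.209). The mean over its 5 probe sets gave 0.53 (adjusted p = 0.242).

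**Figure D3:**
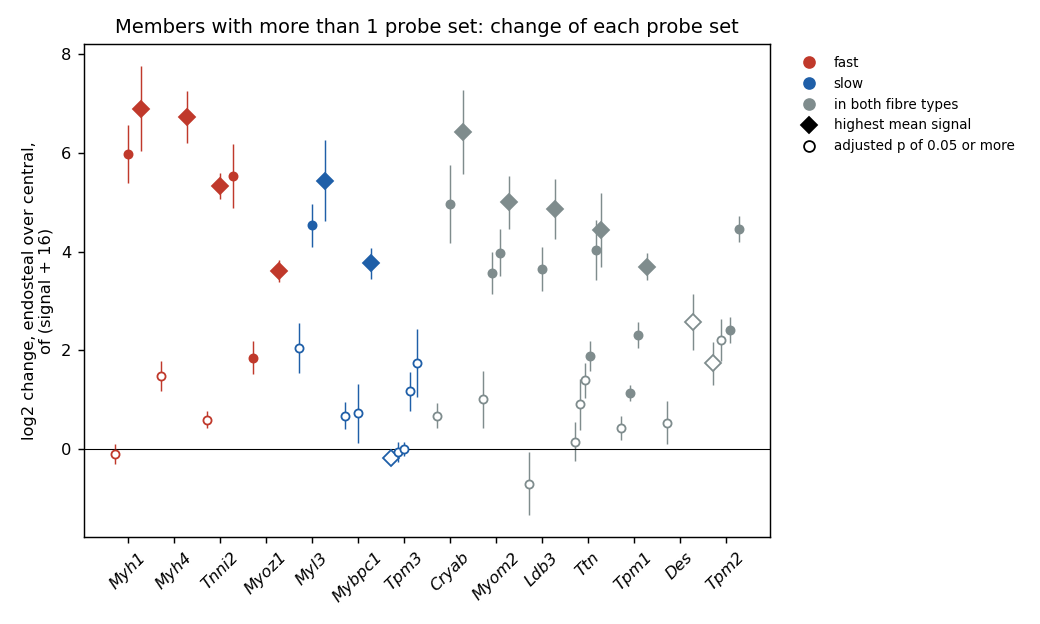
Change of each probe set, endosteal over central on the log2(signal + 16) scale, for the 14 sarcomere genes with more than 1 probe set, with the SE of a limma fit over all probe sets as bars. Diamonds mark the probe set that stands for the gene and open symbols an adjusted p of 0.05 or more over all 45037 probe sets, so Des, called among genes, is open here (adjusted p = 0.0662). The sets of Myh1, Cryab, Ldb3, Myh4 and Tnni2 spread most widely, those of Myh1 from -0.11 to 6.90.

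All 8 Z-disc genes were called. Actn3, the fast-fibre alpha-actinin that crosslinks actin at the Z-disc, had 3487, 1797 and 1775 on the endosteal arrays, against 47.7, 54.1 and 24.6 on the central arrays, a change of 5.31 (SE 0.35, adjusted p = 0.00284). Actn2, the alpha-actinin of all skeletal fibres and heart, had 777, 618 and 200, against 3.51, 5.22 and 47.4 in central RNA, a change of 4.01 (SE 0.68, adjusted p = 0.0226). It did not pass without endosteal A or B or central A or B (adjusted p = 0.0630 to 0.0812). The calsarcins, which tie alpha-actinin to calcineurin, split by fibre type. Myoz1, the fast form, had 1708, 1078 and 1249 in endosteal RNA, against 99.7, 103 and 80.0 in central RNA (change 3.61, SE 0.21, adjusted p = 0.00209). Myoz2, the slow and cardiac form, had 1111, 767 and 304, against 52.2, 38.2 and 46.1 in central RNA (change 3.42, SE 0.47, adjusted p = 0.0138), and did not pass without endosteal B or central A or B (highest adjusted p = 0.0579).

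The other Z-disc genes belong to both fibre types. Cryab, a small heat shock protein that protects desmin, had 7394, 3041 and 1337 on endosteal A, B and C, against 84.5, 9.27 and 2.87 on the central arrays, a change of 6.43 (SE 0.87, adjusted p = 0.0130). Its endosteal A signal was 5.53 times that of endosteal C, and it did not pass without central B (adjusted p = 0.0552). Ldb3, a PDZ and LIM protein that binds alpha-actinin, had 2038, 801 and 571, against 51.5, 9.48 and 7.29 in central RNA (change 4.86, SE 0.62, adjusted p = 0.0116), although 1 of its 3 probe sets pointed the other way (-0.71, adjusted p = 0.560 over all probe sets). Tcap, the titin cap protein, had 1697, 986 and 814, against 137, 120 and 105 in central RNA (change 3.05, SE 0.30, adjusted p = 0.00631). Des, the muscle intermediate filament desmin, had 1193, 521 and 329, against 131, 42.2 and 110 in central RNA, and passed narrowly (change 2.57, SE 0.57, adjusted p = 0.0434). Des did not pass without any 1 of the 6 arrays (adjusted p = 0.0523 to 0.115), with pseudocount 1 or after quantile normalisation (adjusted p = 0.0619 and 0.0519). Its second probe set overlapped between regions (0.53, adjusted p = 0.528 over all probe sets), and the mean of both gave 1.55 (adjusted p = 0.0816). Each of these 4 genes was highest on endosteal A and lowest on endosteal C.

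Titin and the M-band genes, which hold the thick filament in the middle of the sarcomere, were all called. Ttn had 4723, 2202 and 1194 on the endosteal arrays, against 252, 37.4 and 70.4 on the central arrays, a change of 4.44 (SE 0.76, adjusted p = 0.0233). It did not pass without endosteal A or B or central B or C (adjusted p = 0.0593 to 0.0757). Of its 6 probe sets, 3 were called, at 4.44, 4.03 and 1.88, and the others gave 1.39, 0.90 and 0.14. Myom2, an M-band protein of adult muscle, had 1769, 849 and 493 in endosteal RNA, against 16.5, 2.12 and 24.8 in central RNA (change 5.00, SE 0.54, adjusted p = 0.00800). Myom1, the M-band protein of all striated muscle, had 708, 611 and 670, against 220, 260 and 390 in central RNA, the smallest change among the 28 called genes (1.19, SE 0.23, adjusted p = 0.0311). Myom1 stayed called only without central C (adjusted p = 0.0247), and otherwise had 0.0749 to 0.104 with 1 array left out. Over all 70 probe sets of the 37 genes, 39 were called higher and 0 lower (0 lower also at an unadjusted p under 0.05), where 3.21% of all 45037 probe sets were called higher. With the letter as a block 0 of them were called, and with 1 array left out the count was 14 without central A, 17 without central B, 23 without central C, 24 without endosteal A, 21 without endosteal B and 42 without endosteal C. The share of all probe sets called in these fits is not given here, so these counts have no background. Over all genes, 0.786% were called higher with the block and 3.02% to 5.10% with 1 array left out. The mean over all probe sets of a gene gave smaller changes of 3.82 for Tnni2, 2.73 for Myoz1, 4.02 for Cryab and 3.38 for Myom2, and each stayed called (adjusted p = 0.00327 to 0.00938).

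The fast and slow genes differed in how their signals varied among the 3 endosteal arrays. Relative to the central mean, the median of the 12 fast genes was 5.92 on endosteal A, 5.04 on B and 5.01 on C, whereas that of the 9 slow genes was 4.20, 3.99 and 1.44. All 12 fast genes were highest on endosteal A, above B by 0.39 to 1.22 on the log2 scale (median 0.84), and 30 of all 37 genes were highest there. Endosteal C and B were close for the fast genes, with C minus B between -0.52 and 0.21 (median -0.06, and 0.06 when each array was centred on its median). All 9 slow genes were lowest on endosteal C, but so were 9 of the 12 fast genes and 31 of all 37. The classes differed in how far C lay below B. For the slow genes, A minus B had a median of -0.08, and C minus B ran from -3.61 in Tnnc1 to -0.05 in Tpm3, with a median of -2.56 (-2.63 over the 8 genes other than Tpm3). In signal, endosteal B was 12.9 times endosteal C for Tnnc1, 9.26 times for Myl3, 8.78 times for Myl2, 7.15 times for Tnni1 and 6.29 times for Myh7. It was 2.65 times for Tnnt1, 2.52 times for Myoz2 and 1.64 times for Mybpc1. The Myl3 ratio is that of its brightest probe set, with a C minus B of -3.12. The other Myl3 probe sets had smaller drops, with a C minus B of -1.50 and -1.95. The medians of the 13 genes of both fibre types lay between, at 0.78 for A minus B and -0.51 for C minus B. Single genes overlapped with the slow ones. For Actn2, endosteal B was 3.08 times endosteal C, more than for Tnnt1, Myoz2 and Mybpc1, and for Cryab it was 2.27 times. Over all genes these medians were -0.01 and -0.01.

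**Figure D4:**
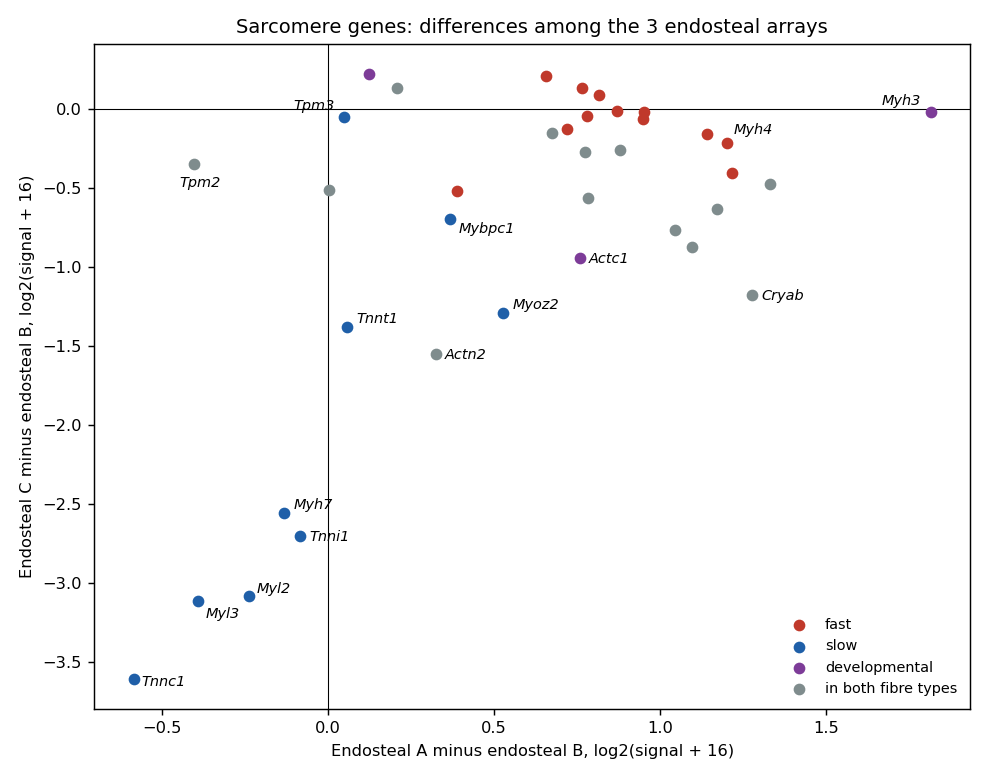
Difference between endosteal C and B (vertical) against that between endosteal A and B (horizontal) for each sarcomere gene, in log2(signal + 16). The fast genes lie at the upper right, with C minus B between -0.52 and 0.21, and Tnnc1, Myl3, Myl2, Tnni1 and Myh7 lie at the lower left, at -2.56 or below.

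This difference between fast and slow genes rests on 1 array and has no replicate, so no test was made. The summed signal of the 8 slow genes other than Tpm3 was 12148, 13696 and 2504 on endosteal A, B and C, against 887, 748 and 704 on the central arrays. The summed signal of the 12 fast genes was 114748, 61802 and 59902, against 1171, 868 and 993. Leaving out endosteal C raised the median change of the 37 genes to 4.54 and turned Myh7, Myl2, Tnnt1 and Tnnc1 into called genes, as the intensity trend and the filter on the median signal also did with all arrays (adjusted p = 0.00490 to 0.0179). Leaving out endosteal C also ended the calls of Klhl41, Des and Myom1 (adjusted p = 0.0676, 0.0523 and 0.0773).

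Genes outside the 37 give the setting. Of 35 measured genes of a list of other sarcomere genes, 18 were called higher and 0 lower, with a median of 1.69. They were led by Myot, the Z-disc protein myotilin (5.55), by Smpx, a small muscle protein (5.37), and by Trim54, a RING-finger protein of the sarcomere (3.83). Of 14 skeletal muscle markers outside the sarcomere, 13 were called higher (median 3.62), led by Mb, Ckm and Pvalb at 7.21, 7.07 and 6.31. Pvalb, the calcium buffer parvalbumin of fast fibres in mice, had 11210, 5978 and 5109 on the endosteal arrays, against 133, 74.5 and 34.9 on the central arrays. Its highest signal was on endosteal A, as for all 12 fast genes and 30 of the 37 sarcomere genes. Mb, the oxygen store myoglobin, had 6681, 3898 and 2319, against 17.1, 6.10 and 9.51 in central RNA.

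Of 10 cardiac muscle markers, 0 were called by limma and 0 had an unadjusted p under 0.05, with a median of 0.07 and summed signals between 780 and 1174 on the endosteal arrays against 1208 to 1546 on the central ones. Most of each central sum came from a single gene, Myl4, with 301, 484 and 951 on endosteal A, B and C, against 785, 935 and 1372 on the central arrays. Myh6, the heavy chain of the mouse heart, named here as a defining marker, had 20.7, 33.2 and 18.2 in endosteal RNA, against 5.91, 28.0 and 4.51 in central RNA. Endosteal and central signals of Myh6 overlapped. Of 10 smooth muscle markers, 3 were called higher (Tagln at 2.46, Myl9 at 1.57 and Mylk at 1.31). Of 10 non-muscle relatives of the sarcomere genes, only Actb, the cytoplasmic actin, was called, at 0.58, and their median was 0.04.

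Other tissues moved on the same arrays. Of 8 measured bone matrix markers, 7 were called higher, with summed signals of 82559 to 100113 on the endosteal arrays against 2109 to 2791 on the central ones, led by Col1a1 at 6.34, Col1a2 at 6.10 and Dmp1 at 5.22. Of 10 tendon and periosteum markers, 6 were called higher, led by Ctsk (also an osteoclast gene) at 5.57, Postn at 4.96 and Tnc at 3.85. Their summed signal was 18717 to 20982, against 666 to 992 in central RNA. Of 10 endothelial markers, 7 were called higher, led by Emcn at 2.77, Tek at 2.44 and Kdr at 1.80, with sums of 4861 to 5100 against 1559 to 2068. Of 11 measured marrow blood cell markers, Camp was called higher at 0.53 and Cd79a and Cd79b lower at -1.71 and -1.26. Their sums were 228806 to 239249 on the endosteal arrays and 196487 to 205860 on the central ones, so blood cell RNA was present on all 6. With the letter as a block, limma called 5 of the 8 bone, 3 of the 10 tendon and periosteum and 1 of the 10 endothelial markers higher. It called 0 of the 11 marrow markers either way. That fit called 0.786% of all genes higher, with 4 of the 35 other sarcomere genes, 8 of the 14 skeletal muscle markers and 0 of the 10 smooth muscle markers. The part of these other cells in the sarcomere signals was not tested. On endosteal A, B and C the bone sums were 100113, 82573 and 82559 and the endothelial sums 5100, 4861 and 4966. The tendon and periosteum sum was mostly Ctsk, with 10080, 11670 and 13510 on endosteal A, B and C. The tendon genes Tnmd (206, 182 and 49.3, against 44.7, 6.09 and 15.2 in central RNA) and Thbs4 (272, 234 and 99.9, against 5.59, 2.80 and 3.31), named after their values were seen, were low on endosteal C. The list as a whole was not. Of its 10 genes, 4 were lowest on endosteal C and 4 on endosteal B, with a median C minus B of -0.03.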

How the data were processed

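The deposited values are Affymetrix probe set intensity signals, made by the authors from 6 arrays, each hybridised with biotin-labelled cRNA from 2 micrograms of total RNA, per the labels' protocols. For the arrays, the summarising software, any background step and a genome build were not given in the sources used here. No scanner files were used. Equal trimmed means (2% off each end) show that each array had been scaled. The number of arrays limits the precision. Of 45101 probe sets, 64 were controls, 34945 named 1 gene, 932 several and 9160 none here. The names came from the platform annotation, and symbols were matched through Entrez identifiers to RefSeq's GRCm38.p6 table, which held 34741 of the 34945.

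A gene's values are those of 1 probe set, the brightest by its 6-array mean that names no other gene. Endosteal and central arrays were compared on log2(signal + 16) with limma 3.58.1 (lmFit and eBayes, R 4.3.3), two-sided, with no term other than region, adjusted over all 18193 genes. A second fit over 45037 probe sets gave the probe set values. Fast and slow genes were compared among endosteal arrays as a description. The procedure was tested on simulated data. All members were to be named or counted, and of each marker list up to 3 called genes with the largest change. The members, fibre classes and lists were chosen with earlier results of these data known, so their directions are not independent evidence. Alternatives covered the pseudocount, a signal filter, scaling, the probe set choice, the variance trend, the letter as a block and each array left out. Promoters and their chromosome positions are RefSeq's.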

Additional observations from a re-analysis of the deposited data

How the results depend on the processing

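No member was called lower under any of the 16 alternatives, by limma. Members called higher were 25 with pseudocount 1, 33 with pseudocount 64, 32 of 33 above the median signal, 26 after quantile normalisation, 28 after centring, 28 with the mean of a gene's probe sets, 34 with an intensity trend and 19 to 29 with 1 array left out. The shares of all genes tested were, in the same order, 6.33%, 10.2%, 18.4%, 6.39%, 5.23%, 6.11%, 12.2% and 3.02% to 5.10%. Choosing the probe set by mean log2 signal, or leaving out sets ending in _x_at or _s_at, both chosen after seeing the data, gave 27 each and ended the call of Myl3 (2.04, adjusted p = 0.0573 and 0.0587). Of all genes tested, 7.74% and 7.35% were called higher with these choices. With the letter as a replicate block, 15 members (lowest adjusted p = 0.0213) and 0 member probe sets were called, against 28 and 39 without it, and 143 genes were higher and 6 lower, against 1441 and 731. Deviations of same-letter arrays correlated at 0.045, 0.039 and 0.015 over all genes (0.254, 0.119 and 0.085 above the median signal). Each of the 3 endosteal and 3 central arrays correlated best with its own letter over all genes (2 of 3 endosteal and 3 of 3 central above the median signal), a hint from the data and not the design. Member probe sets called numbered 14 to 42 with 1 array left out, and the share of all probe sets is not given for these fits or the block. The members' median was 2.98 with pseudocount 64 and 3.44 to 4.54 with 1 array left out. The mean of its probe sets turned Tpm3 to 0.53 (adjusted p = 0.242), and Myh3, at -0.33 to 0.59 with 1 array left out, turned to -0.33 without endosteal A (adjusted p = 0.222). Genes called higher and lower over the whole array were 1670 and 1722 of 9096 above the median signal, 952 and 1786 after centring, 2215 and 1693 with a trend, and 549 to 928 and 101 to 307 with 1 array left out. Centring shifted the median of all genes to -0.16. The cause of these shifts was not tested. Central signals below 100 in 24 members leave the size of their changes uncertain.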

Other observations

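A search over all genes, with limits chosen after the data were seen, asked which ones were low on 1 endosteal array only. Of 9206 genes with a signal of at least 200 on both endosteal A and B, 8 were at least 4-fold lower on endosteal C than on either, and 5 of the 8 were slow sarcomere genes: Tnnc1, Myl2, Myl3, Tnni1 and Myh7. The search used 1 probe set per gene, and Myl3 met the 4-fold limit only with that set. Its other sets had 767, 781 and 266, and 745, 1081 and 268, on endosteal A, B and C. The other genes were Nr2f6, a nuclear receptor, with 211, 239 and 34.2 on endosteal A, B and C against 164, 125 and 223 on central A, B and C, Nradd, with 250, 271 and 48.4 against 246, 217 and 229, and Notum, a Wnt-inactivating enzyme, with 329, 401 and 81.3 against 160, 118 and 206. The same search gave 6 of 9129 genes low on endosteal B and 3 of 9153 low on endosteal A, and 0 of these were sarcomere genes.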
